A study of Mus musculus with 24 samples.

Results

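The 10 genes described here encode enzymes, and close partners of enzymes, that modify and trim procollagen: the prolyl 4-hydroxylase alpha subunits P4ha1, P4ha2 and P4ha3, the lysyl hydroxylases Plod1, Plod2 and Plod3, the procollagen C-proteinase Bmp1 with its enhancer Pcolce, and the endoplasmic reticulum partners Crtap and Fkbp10. They were chosen by name with a rule that uses no measured value, though earlier results of these data were known at the time, from the 56205 genes of the count table, and all 10 were tested. RNA-Seq of whole mouse liver was performed on 24 libraries, 12 from C57BL/6J mice fed a high-fat diet (FFD, which holds palm oil, cholesterol and fructose) and 12 from C57BL/6J mice fed its control diet, each for 20 weeks. The animals were young adults at the start and, per the series design, each diet was given to 6 male and 6 female mice, although the sex of an individual library is not stated in its labels. No genetic change or drug distinguished the groups, and poly(A)-selected RNA of liver pieces was sequenced.

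Collagen chains are modified while they are still being made in the endoplasmic reticulum. The collagen prolyl 4-hydroxylases, which pair an alpha subunit with P4hb (protein disulfide isomerase), hydroxylate prolines and so make the triple helix stable at body temperature. Lysyl hydroxylases prepare lysines for sugar attachment and cross-linking. Outside the cell, Bmp1 removes the C-propeptide from procollagen, which allows the molecules to assemble into fibrils, and in the liver the main producers of fibrillar collagen during injury are activated hepatic stellate cells.

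Counts per gene summed to between 14468418 and 22112552 per library. Levels are given as CPM (counts divided by the library's scaled total and multiplied by 1e6), scaled by edgeR's TMM method, and a gene is called higher or lower on the high-fat diet when its adjusted p is at most 0.01 and its absolute log2 fold change is over 0.5 in the quasi-likelihood test of edgeR, adjusted over 17913 genes by the Benjamini-Hochberg method. Among all genes tested 13.2% were called higher and 4.99% lower, and the median log2 fold change was -0.03. With library totals in place of TMM this median was 0.26, so every change below is relative to a scaling that moves all genes together. TMM factors were 0.994 to 1.34 on the high-fat diet and 0.679 to 1.01 on the control diet, with the 2 extremes in high-fat replicate 9 and control replicate 10. The libraries also fell into 2 sets that the diet does not explain, replicates 1 to 6 with Xist above 1000 counts and replicates 7 to 12 with Xist below 1000 counts, 6 libraries per diet and set. The Y-linked gene Ddx3y had 0 counts in every library of the first set and 448 to 1016 counts in those of the second. The number per diet and set equals that of the design for each sex, though no label assigns a sex to a library. Hepatocyte markers were abundant in every library, with a summed level of Alb, Apoa1, Ttr, Cps1 and Hnf4a of 33734 to 85681 CPM on the high-fat diet and 74399 to 122766 CPM on the control diet. The design gives as many mice as libraries, but the labels name no animal, so the p-values measure the spread between libraries.

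Of the 10 genes, 5 were called higher on the high-fat diet (P4ha1, Plod2, Pcolce, Crtap and Fkbp10), 1 was called lower (Bmp1) and 4 were not called (P4ha2, P4ha3, Plod1 and Plod3). The shares of all genes tested were 13.2% higher and 4.99% lower. The median log2 fold change of the 10 genes was 0.92. The same counts of 5 and 1 were found when both libraries with extreme TMM factors were left out. With library totals in place of TMM, where 21.4% of all genes were called higher and 1.26% lower, 7 of the 10 genes were called higher and 0 lower. In that case P4ha2 and Plod1 joined the higher genes and Bmp1, at a log2 fold change of -0.48 with an adjusted p of 1.53e-04, missed the fold threshold.

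**Figure D1:**
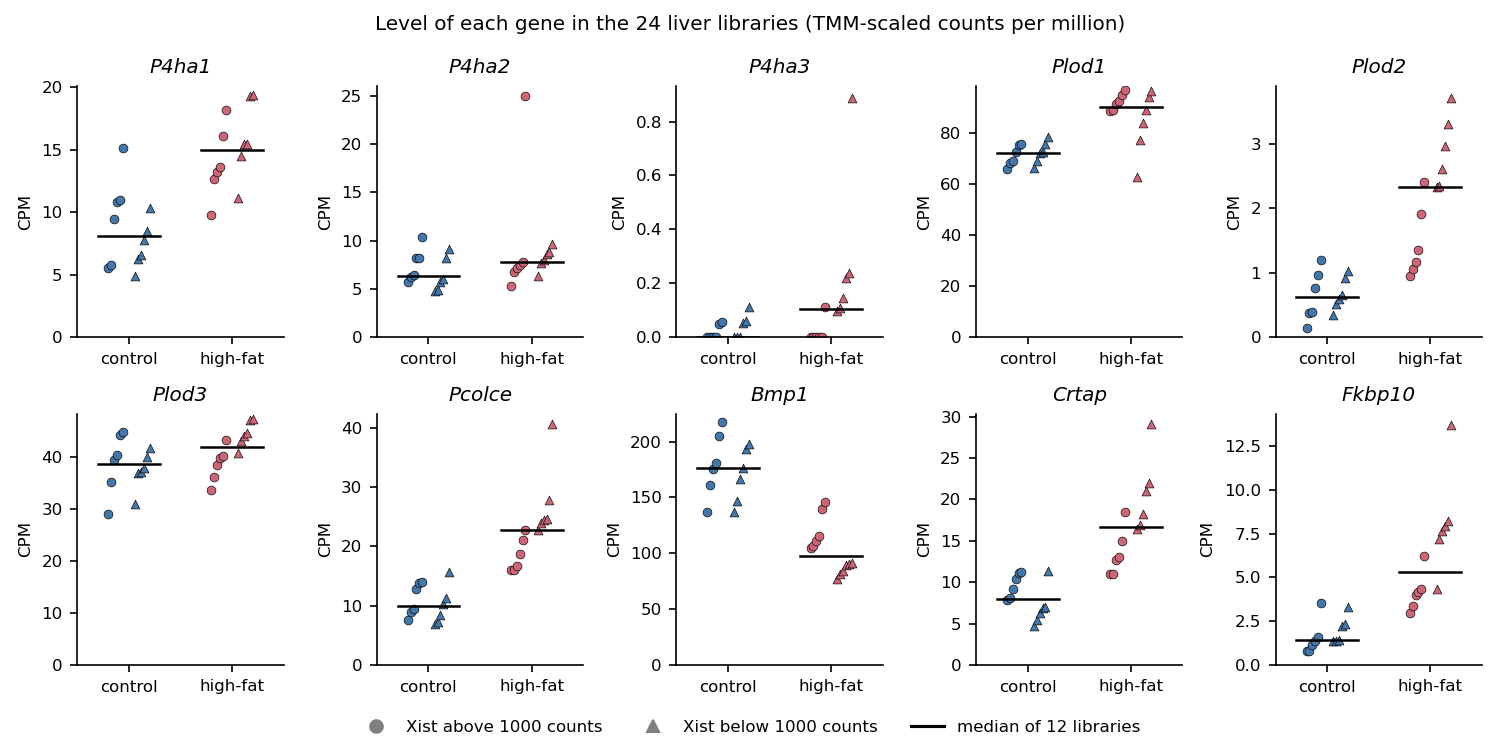
Each point is 1 library and the y axis of each panel is the level in TMM-scaled CPM, starting at 0, with circles for libraries with Xist above 1000 counts, triangles for those below, and a line at the median of 12 libraries. Pcolce is the gene whose diets do not overlap, Bmp1 is the gene that lies lower on the high-fat diet, and the high point of P4ha2 is high-fat replicate 3 at 25.0 CPM.

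The 3 alpha subunits differed in how far they moved between the diets. The sequences before their start sites are shown first because P4ha1 and P4ha2 are textbook targets of the hypoxia-inducible factor (HIF), whose binding sites share the core ACGTG, with GCGTG as the other common form. Each line gives the 250 bases before the RefSeq start on the strand of the gene, 5′ to 3′, from GRCm38.p6, and capitals mark either core on either strand. The windows are chr10:59323046-59323295 for P4ha1, chr11:54100674-54100923 for P4ha2 and chr7:100285270-100285519 for P4ha3, all on the plus strand. The P4ha2 window lies inside the gene as GENCODE M21 gives it, which starts at 54100095. That of Pcolce, counted below, also lies inside its GENCODE gene. For these genes an annotated start therefore lies before the window.
P4ha1: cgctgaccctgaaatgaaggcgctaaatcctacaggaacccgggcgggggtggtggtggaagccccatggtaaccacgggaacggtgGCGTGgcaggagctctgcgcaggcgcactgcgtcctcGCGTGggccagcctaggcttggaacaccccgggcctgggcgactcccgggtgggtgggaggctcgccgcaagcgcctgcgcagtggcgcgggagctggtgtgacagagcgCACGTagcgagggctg
P4ha2: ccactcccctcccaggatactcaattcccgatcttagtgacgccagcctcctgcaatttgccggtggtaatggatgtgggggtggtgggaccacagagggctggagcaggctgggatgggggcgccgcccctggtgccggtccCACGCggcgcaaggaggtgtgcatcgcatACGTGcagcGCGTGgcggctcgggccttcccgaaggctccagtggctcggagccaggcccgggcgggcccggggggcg
P4ha3: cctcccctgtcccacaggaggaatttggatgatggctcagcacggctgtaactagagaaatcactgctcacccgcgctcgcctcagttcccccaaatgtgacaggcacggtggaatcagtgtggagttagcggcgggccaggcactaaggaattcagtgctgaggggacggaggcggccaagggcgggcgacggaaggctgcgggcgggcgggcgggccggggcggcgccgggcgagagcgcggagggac
In P4ha1 the first form lay 16 bases before the start and the second 126 and 163 bases before it. In P4ha2 the first form lay at 78 bases and the second at 69 and 107 bases. P4ha3 held neither form. Of the 7 genes with a window in the RefSeq table, 6 held one of them, against 38.6% of 32851 promoter windows of the same length (16.6% with the first form and 28.2% with the second). Both forms contain CG, and the windows of the 7 genes were 53.6% to 70.0% G or C. The windows they are set against were not matched for this, and an excess was not tested. The Sp1 box (GGGCGG on either strand) was present 5 times in P4ha3, and also in P4ha1, P4ha2, Pcolce and Plod1, and 32.7% of all windows held it. The CCAAT box was found in Plod3 and in 33.8% of windows, and the TATA box, searched as TATAAA, in Crtap and Plod1 and in 12.4% of windows, each on either strand. Plod2, Bmp1 and Fkbp10 were not among the sequences used here. A match describes the letters of a window and not binding.

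P4ha1 (ENSMUSG00000019916, chr10:59323296-59373304, plus strand), the broadly expressed catalytic subunit, ranged from 4.87 to 15.1 CPM with a median of 8.10 in the 12 control libraries. On the high-fat diet it ranged from 9.73 to 19.4 CPM with a median of 14.9. The diets overlapped, with 6 high-fat libraries above all controls, and control replicate 5 stood apart at the top of the controls, with the next at 10.99 CPM. This gave a log2 fold change of 0.81 ± 0.16 (SE, n = 12 per diet), with an adjusted p of 2.84e-04 in edgeR's quasi-likelihood test.

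P4ha2 (ENSMUSG00000018906, chr11:54100095-54131665, plus strand), the alpha subunit known from cartilage and bone, had control levels of 4.81 to 10.4 CPM with a median of 6.33. High-fat levels were 5.34 to 25.0 CPM with a median of 7.73. The high-fat maximum was replicate 3, and it alone lay above all controls, since the next high-fat library was at 9.61 CPM. Its log2 fold change of 0.37 had a 95% interval of -0.04 to 0.78 and an adjusted p of 0.142 in edgeR's quasi-likelihood test, and it was 0.12 without high-fat replicate 3. The interval does not show that the level was equal on the diets.

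P4ha3 (ENSMUSG00000051048, chr7:100285520-100319699, plus strand), the least expressed alpha subunit, was near the floor of detection. It had 0 to 2 counts in the control libraries, 7 of which were at 0, and 0 to 21 counts in the high-fat libraries, 5 of which were at 0. A count of 3 equals on average 0.175 CPM in a control library and 0.148 CPM in a high-fat library, and this limit covers counting error only. The 21 counts were in high-fat replicate 9, and all 6 high-fat libraries with Xist below 1000 counts had at least 2 counts, while 5 of the 6 with Xist above 1000 counts had 0. The gene was not called (adjusted p 0.0254, edgeR's quasi-likelihood test), and its fitted log2 fold change of 2.24, or 1.45 without high-fat replicate 9, depends on the prior count and is no bound.

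Within the alpha subunits, levels per kilobase of exon shifted from P4ha2 towards P4ha1. P4ha1 held 63.8% ± 6.78 (SD, n = 12) of the summed level per length on the control diet and 71.6% ± 7.41 on the high-fat diet (two-sided permutation p = 0.0147, adjusted over 6 shares 0.0294). P4ha2 held 36.0% ± 6.81 and 27.4% ± 7.25 (permutation p = 0.0081, adjusted 0.0243). As a ratio within each library on the log2(CPM + 1) scale, P4ha2 to P4ha1 was 0.52 lower on the high-fat diet, with an adjusted p of 0.00771 over 17 ratios in a permutation test. The groups overlapped, and in the libraries with Xist above 1000 counts the difference was -0.34 with an adjusted p of 0.288.

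Of the lysyl hydroxylases, the least expressed gene had the largest fold change of the 3. Plod2 (ENSMUSG00000032374, chr9:92542223-92608428, plus strand) hydroxylates the lysines of the collagen telopeptides, which is the step that leads to stable pyridinoline cross-links. Its level was 0.147 to 1.202 CPM in the controls (median 0.621), from 3 to 25 counts per library. On the high-fat diet it was 0.946 to 3.72 CPM with a median of 2.34, from 19 to 88 counts. High-fat libraries lay above all controls in 9 of 12 cases, and replicate 9 was the highest. For Plod2 the log2 fold change was 1.72 ± 0.28 (SE, n = 12 per diet; adjusted p 4.07e-05, edgeR's quasi-likelihood test).

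Plod1 (ENSMUSG00000019055, chr4:147909753-147936767, minus strand), which modifies lysines of the triple helix, was the most abundant of the family. It ranged from 65.6 to 78.4 CPM on the control diet (median 72.1) and from 62.5 to 96.5 CPM on the high-fat diet (median 90.1). Of the high-fat libraries 10 lay above all controls, yet the lowest of the 24 libraries was high-fat replicate 9. Its log2 fold change of 0.29 ± 0.06 (SE, n = 12 per diet) had an adjusted p of 7.42e-04 in edgeR's quasi-likelihood test but stayed under the fold threshold, so it was not called.

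Plod3 (ENSMUSG00000004846, chr5:136987019-136996648, plus strand), which also attaches sugars to hydroxylysine, was 29.0 to 44.8 CPM on the control diet and 33.6 to 47.4 CPM on the high-fat diet, with medians of 38.7 and 41.9. The groups overlapped widely, with 2 high-fat libraries above all controls. The log2 fold change was 0.12 with a 95% interval of -0.03 to 0.27 (adjusted p 0.181, edgeR's quasi-likelihood test). Plod3 shares 529 exonic bases with Znhit1 on the opposite strand, which had up to 978 counts in a library, and whether the counting used strand is not given in the sources used here.

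Plod2 rose as a part of its family while staying a small part. Per kilobase, it was 0.632% ± 0.290 (SD, n = 12) of the summed level of the 3 lysyl hydroxylases on the control diet and 1.80% ± 0.811 on the high-fat diet (two-sided permutation p = 5e-05, adjusted over 6 shares 3e-04). Plod1 was 55.4% ± 3.21 and 57.5% ± 4.69 (adjusted p 0.229), and Plod3 43.9% ± 3.26 and 40.7% ± 4.03 (adjusted p 0.0683). Within libraries the ratio of Plod2 to Plod1 was 0.62 higher on the high-fat diet on the log2(CPM + 1) scale, with an adjusted p of 0.0015 over 17 ratios in a permutation test. In the libraries with Xist above 1000 counts that difference was 0.23, with an adjusted p of 0.278. With a pseudocount of 0.1 CPM the ratio of Plod2 to Plod1 over all libraries was 1.32 higher (adjusted p 1.57e-04, permutation test). The size of this difference therefore depends on the pseudocount. For Plod3 to Plod1 the difference was -0.16 (adjusted p 0.0914).

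The pair that releases the C-propeptide moved in opposite directions. Pcolce (ENSMUSG00000029718, chr5:137605103-137613784, minus strand), a secreted protein that binds the C-propeptide and speeds up its removal, had control levels of 6.97 to 15.7 CPM with a median of 9.86. On the high-fat diet it ranged from 16.1 to 40.7 CPM with a median of 22.8. All 12 high-fat libraries lay above all 12 controls, which no other gene of the 10 showed in either direction. The share of all genes tested whose diets did not overlap was not counted. The log2 fold change was 1.12 ± 0.16 (SE, n = 12 per diet; adjusted p 6.14e-06, edgeR's quasi-likelihood test).

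Bmp1 (ENSMUSG00000022098, chr14:70474558-70520234, minus strand), the protease itself, had control levels of 136.9 to 217.9 CPM with a median of 176.2. High-fat levels were 77.1 to 146.2 CPM with a median of 97.9. There was little overlap, as 10 high-fat libraries lay below all controls and 10 controls lay above all high-fat libraries. Its log2 fold change was -0.76 ± 0.11 (SE, n = 12 per diet; adjusted p 8.26e-06, edgeR's quasi-likelihood test). The ratio of Pcolce to Bmp1 within a library, which does not depend on the scaling between libraries except through the pseudocount, was 1.82 higher on the high-fat diet on the log2(CPM + 1) scale (adjusted p 7.29e-05, permutation test over 17 ratios). It ranged from -4.67 to -3.05 in the controls and from -3.11 to -0.98 on the high-fat diet, so the groups nearly separated. Of the genes tested, hepatocyte markers moved in the direction of Bmp1, with 4 of 5 called lower against 4.99% of all genes. With library totals 1 of 5 was called lower against 1.26%, and the part of hepatocytes in the Bmp1 value was not tested.

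Both partners in the endoplasmic reticulum were called higher. Crtap (ENSMUSG00000032431, chr9:114375134-114390675, minus strand), a non-catalytic member of the prolyl 3-hydroxylase complex with P3h1 and Ppib, was 4.76 to 11.4 CPM in the controls (median 7.95). On the high-fat diet it was 10.9 to 29.1 CPM with a median of 16.7, with 10 libraries above all controls. The log2 fold change was 1.04 ± 0.16 (SE, n = 12 per diet; adjusted p 2.74e-05, edgeR's quasi-likelihood test). Its complex partners gave other values: P3h1 was 18.9 CPM on the control diet and 18.7 CPM on the high-fat diet (log2 fold change -0.01, 95% interval -0.15 to 0.13), and Ppib was 208.9 and 154.0 CPM (log2 fold change -0.44, adjusted p 0.0172, not called). Ppib stood at 501.5 CPM in control replicate 10, with the next control at 232.8 CPM. Without that library its log2 fold change was -0.24, under the fold threshold, with an adjusted p of 0.00282 in edgeR's quasi-likelihood test. The ratio of Crtap to P3h1 was 0.95 higher on the high-fat diet (log2(CPM + 1) scale, adjusted p 7.29e-05, permutation test over 17 ratios).

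Fkbp10 (ENSMUSG00000001555, chr11:100415697-100424824, plus strand) encodes FKBP65, a collagen chaperone that the activity of Plod2 on telopeptides depends on. Control levels were 0.817 to 3.55 CPM with a median of 1.41, and high-fat levels 2.99 to 13.7 CPM with a median of 5.28. Here again 10 high-fat libraries lay above all controls, and replicate 9 was the highest, as it was for P4ha3, Plod2, Pcolce and Crtap. The log2 fold change of 1.80 ± 0.27 (SE, n = 12 per diet; adjusted p 1.40e-05, edgeR's quasi-likelihood test) was close to that of Plod2. The ratio of Plod2 to Fkbp10 differed by -0.42 with a pseudocount of 1 CPM (adjusted p 0.0137) and by -0.14 with a pseudocount of 0.1 CPM (adjusted p 0.625), both from permutation tests, so unequal change of this pair was not shown. Fkbp10 shares 193 exonic bases with Nt5c3b on the opposite strand, which had up to 187 counts in a library, against medians of 25 and 103 counts for Fkbp10 on the control and the high-fat diet. Pcolce shares 112 with Fbxo24, which had at most 7 counts.

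Per kilobase of exon, the order of the 10 genes differed between the diets at its top. On the control diet Bmp1 led with 19.7 ± 2.96 CPM per kb (SD, n = 12), above Plod1 at 10.6 ± 0.605 in all 12 libraries and without overlap. Then came Plod3 (8.44), Crtap (4.68), Pcolce (2.76), P4ha1 (2.06), P4ha2 (1.12), Fkbp10 (0.604), Plod2 (0.122) and P4ha3 (0.00874). Of these neighbours Fkbp10 and Plod2 were the other pair whose ranges did not overlap. On the high-fat diet Plod1 (12.99 ± 1.44 CPM per kb) and Bmp1 (11.6 ± 2.51) stood first with overlapping ranges, followed by Crtap (9.62), Plod3 (9.18), Pcolce (6.01), P4ha1 (3.62), Fkbp10 (2.10), P4ha2 (1.45), Plod2 (0.404) and P4ha3 (0.0480). P4ha2 and Plod2 were there the only neighbours without overlap.

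The other genes of the pathway changed unevenly. Of 31 listed genes, 29 were tested (Tll2 and Mep1a were not), of which 7 were called higher, 1 lower and 21 neither. The median log2 fold change was -0.08, and with library totals 8 were higher, 0 lower and the median 0.22. Among all genes tested 13.2% were called higher and 4.99% lower, or 21.4% and 1.26% with library totals. P4hb is the shared subunit of the collagen prolyl 4-hydroxylases and per kilobase the most abundant of the 5 other hydroxylase subunits. It was 1566 CPM on the control diet and 1480 CPM on the high-fat diet, a log2 fold change of -0.08. Among the other hydroxylase subunits 3 of 5 were called higher: P3h2 (log2 fold change 1.01), P3h3 (1.19) and P3h4 (0.99), the last of which forms a complex with P3h3 and Plod1. In procollagen folding 1 of 4 was called, Serpinh1 (the collagen chaperone HSP47), from 17.5 to 58.4 CPM and a log2 fold change of 1.74. Among 7 export genes Creb3l1, a transcription factor for secretory genes, was called higher (1.83), and the COPII coat gene Sec23a lower (-0.50), which was not called under either of the other scalings, library totals or the size factors of DESeq2, nor in 13 of 24 fits without 1 library. Mia3, a cargo receptor for procollagen and per kilobase the most abundant export gene, was 189.2 and 150.2 CPM (log2 fold change -0.33, adjusted p 0.00327, under the fold threshold). The N-propeptide proteases Adamts2 (1.61) and Adamts14 (1.05) were 2 of 7 propeptide proteases and enhancers called, while Furin, the most abundant of them, was 391.3 and 339.3 CPM (log2 fold change -0.21, adjusted p 0.0713). Of the rest, Colgalt1, which adds galactose to hydroxylysine, was 77.1 CPM on the control diet and 95.4 CPM on the high-fat diet (log2 fold change 0.31, adjusted p 1.94e-04, under the fold threshold), and Rgn, an enzyme of the synthesis of ascorbate, which the hydroxylases need, was 1025 and 748.9 CPM (log2 fold change -0.45, adjusted p 0.0191, not called). Gene by gene these values come from edgeR's quasi-likelihood test.

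**Figure D2:**
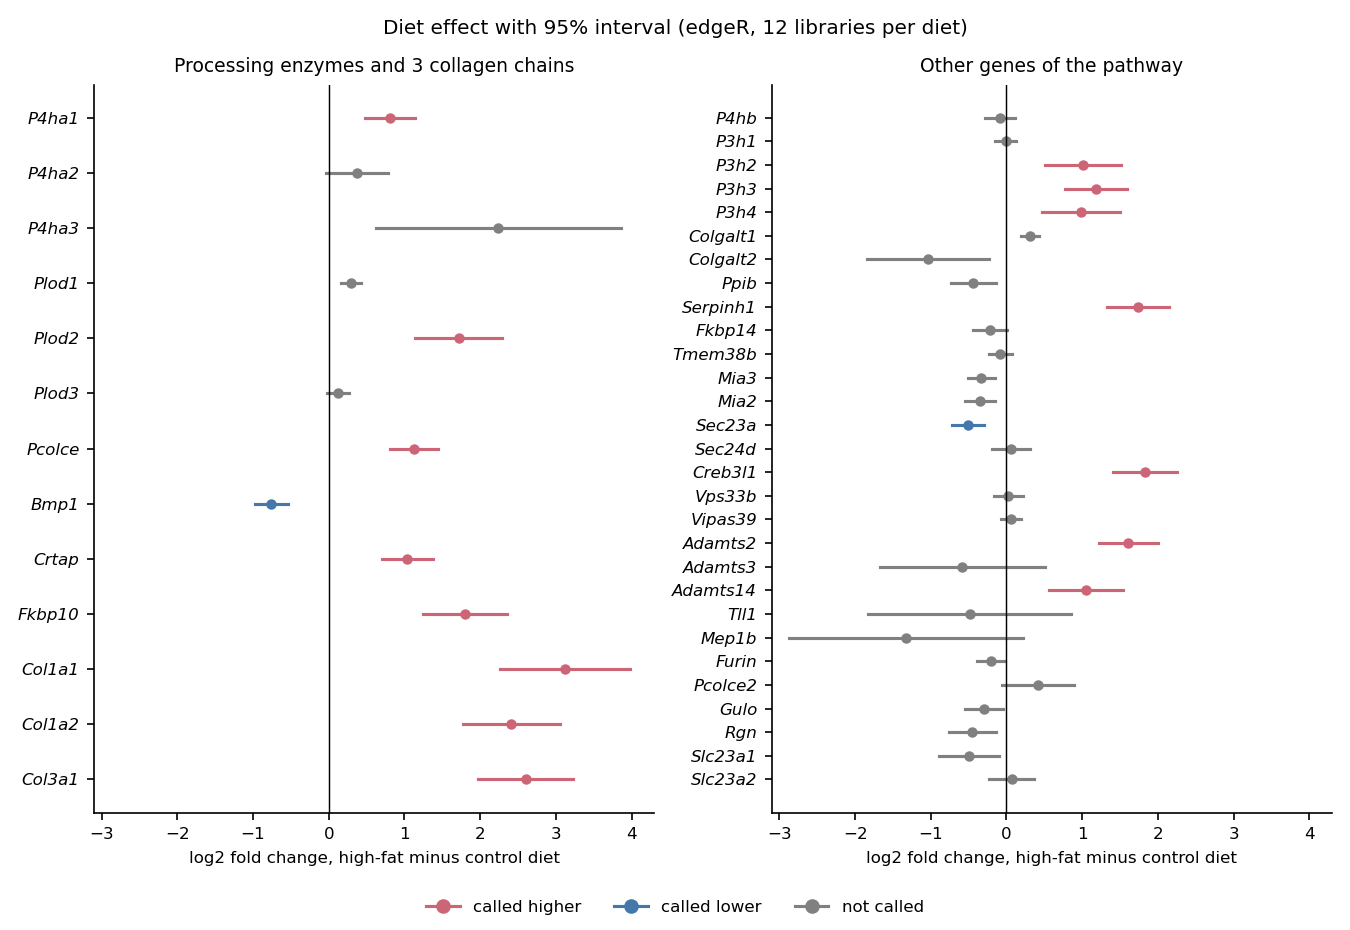
Points are log2 fold changes, high-fat minus control diet, with 95% intervals from edgeR over 12 libraries per diet, for the 10 genes and 3 collagen chains on the left and for 29 other genes of the pathway on the right. The 3 collagen chains lie at 2.41 to 3.12, to the right of every called gene of the 10, Bmp1 lies at -0.76, and the wide interval of P4ha3 rests on a few counts.

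Fibrillar collagen transcripts, the substrates of these enzymes, rose, and Col1a1 rose by more than any of the 10 genes. Col1a1, Col1a2 and Col3a1, the chains of the main fibrillar collagens, had log2 fold changes of 3.12, 2.41 and 2.60, and all 3 were called higher. Within libraries each of the 10 genes was lower relative to Col1a1 on the high-fat diet, by 1.82 (Fkbp10) to 3.92 (Bmp1) on the log2(CPM + 1) scale, with adjusted p between 7.29e-05 and 8.50e-05 over 17 ratios in permutation tests. Pcolce differed by -2.10, Crtap by -2.20, Plod2 by -2.24 and P4ha1 by -2.37. With a pseudocount of 0.1 CPM Plod2 differed by -1.67, Pcolce by -2.15, Crtap by -2.25 and P4ha1 by -2.42. The place of Plod2 in this order therefore depends on the pseudocount. For every one of the 10 ratios the groups overlapped, and that of P4ha3 is set largely by the pseudocount. The summed CPM of the 10 genes was 276.9 to 363.7 on the high-fat diet, against 150.9 to 608.7 for the 3 collagen chains. On the control diet these sums were 278.6 to 365.8 and 23.9 to 198.5, so both sums overlapped between the diets.

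**Figure D3:**
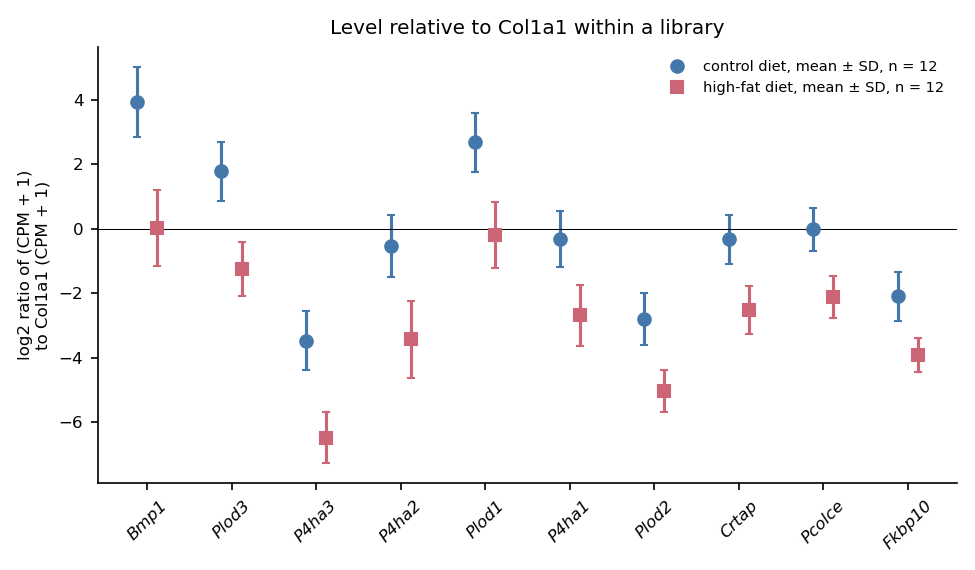
The y axis is the log2 ratio of CPM + 1 of each gene to CPM + 1 of Col1a1 within a library, and points with bars are the mean ± SD of 12 libraries per diet. Genes are ordered by the size of the difference, from Bmp1 at -3.92 to Fkbp10 at -1.82, and the high-fat mean lies below the control mean for all 10.

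Across libraries of 1 diet, levels of 2 of the genes varied with Col1a1 among controls. After the mean of each set of libraries was subtracted, Pcolce and Col1a1 had r = 0.88 (permutation p = 2e-04) and rho = 0.87 (p = 0.00101) over the 12 controls, with adjusted p of 0.008 and 0.0101 over 40 values. Crtap had r = 0.90 (p = 4.6e-04) and rho = 0.82 (p = 6.3e-04), both with an adjusted p of 0.0084. With the 2 libraries whose Col1a1 lay farthest from its median left out, r was 0.82 for Pcolce (permutation p = 0.00622, adjusted 0.0829) and 0.71 for Crtap (permutation p = 0.0336, adjusted 0.165). Within the sets r was 0.80 and 0.94 for Pcolce and 0.80 and 0.93 for Crtap. With those 2 libraries left out, neither gene passed the adjustment at 0.05. Over the 12 high-fat libraries none of the 10 genes reached an adjusted p of 0.05, the lowest being 0.11 for Fkbp10 (r = 0.65, permutation p = 0.0205; rho = 0.59, permutation p = 0.0647). Whether the correlations differed between the diets was not tested.

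As a description, the tested gene whose level was most like that of each of the 10 was found over the 24 libraries after the means of the 4 combinations of diet and set were subtracted, with no p. Crtap was most like C1qtnf6 (r = 0.91, and 0.90 without the farthest library), and Pcolce most like Serpinh1 (0.86 and 0.82). Others were Mpzl3 for P4ha1 (0.82 and 0.77), Pmp22 for Plod2 (0.81 and 0.81), Col20a1 for Bmp1 (0.81 and 0.79), Mapk3 for Fkbp10 (0.84 and 0.78) and Map3k11 for Plod3 (0.79 and 0.65). The values of Itgb3 for P4ha2 (0.89 and 0.76), Pdpn for P4ha3 (0.94 and 0.80) and Acot11 for Plod1 (0.84 and 0.69) rested in part on 1 high-fat library, replicate 3 for P4ha2 and replicate 9 for P4ha3 and Plod1. That of Map3k11 for Plod3 rested in part on control replicate 4. Among the 10 themselves, Plod2 with Crtap (0.75) and Pcolce with Crtap (0.74) were the most alike pairs. The 24 points share their TMM scaling.

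The diet effect on Crtap differed in size between the 2 sets of libraries. In the 12 libraries with Xist above 1000 counts, 2 of the 10 genes were called higher (Pcolce and Fkbp10) and Bmp1 lower, where 2.91% of all genes were called higher and 0.896% lower. In the 12 with Xist below 1000 counts P4ha1, Plod2, Pcolce, Crtap and Fkbp10 were called higher and Bmp1 lower, where 14.3% of genes were called higher and 7.89% lower. The interaction of diet and set had an adjusted p of at most 0.05 for 10.2% of all genes. Among the 10 it did so for Crtap alone, which is near the share of all genes. Crtap had a log2 fold change of 0.50 (adjusted p 0.0308) in the first set and 1.58 (adjusted p 4.52e-05) in the second, a difference of 1.07 ± 0.26 (SE; adjusted p 0.00801, edgeR's quasi-likelihood test). For Pcolce (0.75 and 1.47) the interaction had an adjusted p of 0.092, and for Bmp1 (-0.56 and -0.97) one of 0.116. P4ha1 (0.54 and 1.13, adjusted p of the interaction 0.249) and Plod2 (1.19 and 2.10, 0.275) were called in the second set alone, and their difference between sets did not pass the test. The sets coincide with the blocks of replicate numbers, so sex and any shared handling of those blocks cannot be told apart.

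**Figure D4:**
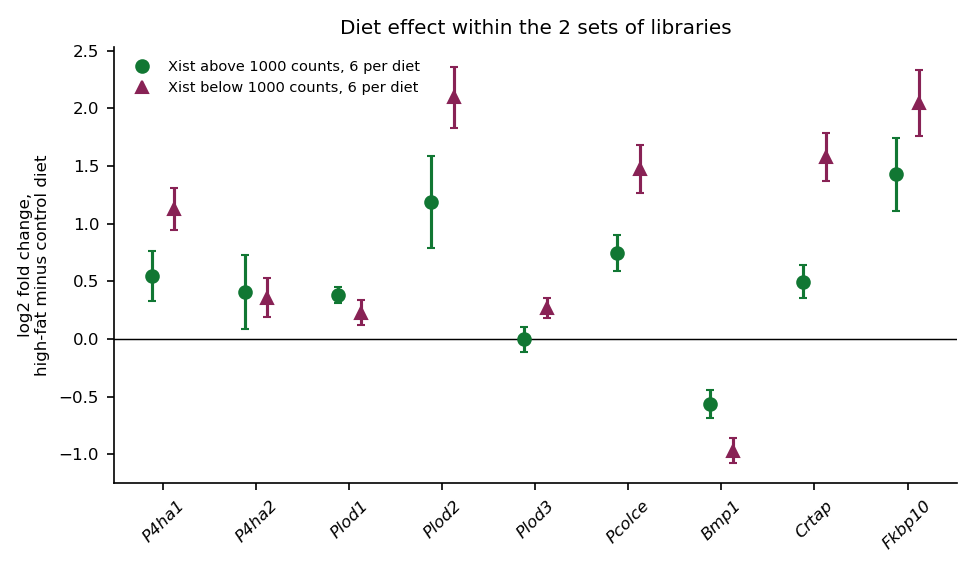
The y axis is the log2 fold change, high-fat minus control diet, with its standard error from edgeR, fitted in the 12 libraries with Xist above 1000 counts (circles) and in the 12 below (triangles), without P4ha3. Crtap shows 0.50 and 1.58, Bmp1 is negative in both sets, and Plod3 lies at -0.0025 and 0.27.

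Markers of other cell types moved with the diet beside these genes. For comparison, 13.2% of all genes tested were called higher, or 21.4% with library totals. Of 6 markers of activated stellate cells or myofibroblasts 5 were called higher, or 6 with library totals, with a summed level of 55.2 to 151.2 CPM on the high-fat diet and 20.4 to 58.8 CPM on the control diet, and of 5 markers of quiescent stellate cells 1 was higher, or 3 with library totals (128.5 to 224.3 and 79.9 to 155.5 CPM). Macrophage markers were higher for 4 of 5 (226.8 to 583.9 and 92.6 to 379.3 CPM) and cholangiocyte markers for 4 of 5 (31.6 to 880.2 and 27.3 to 130.9 CPM). Without high-fat replicate 9 the log2 fold changes of the cholangiocyte markers Krt19, Krt7, Epcam and Spp1 were 1.70, 1.77, 1.55 and 2.39. With all libraries they were 2.72, 2.71, 2.31 and 2.62, and the 4 calls held in every fit without 1 library. Sinusoidal endothelial markers were higher for 1 of 5, or 2 with library totals (118.3 to 294.3 and 113.5 to 246.9 CPM). Of 4 adipocyte markers only Cidec was tested, and it was higher, while Adipoq, Plin1 and Lep did not pass the filter on low counts. In whole liver a larger number of cells of a type and more RNA per cell cannot be told apart, and the part of these cell types in the values of the 10 genes was not tested.

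Of 12 listed HIF targets outside the 10 genes 3 were called higher, Ndrg1 (log2 fold change 0.69), Adm (0.64) and Car9 (1.74), and 1 lower, Vegfa (-0.56), with a median of 0.19. With library totals 5 were called higher, Slc2a1 and Egln1 being added, and 0 lower, with a median of 0.49. Among all genes tested 13.2% were called higher and 4.99% lower, or 21.4% and 1.26% with library totals. Whether the listed targets differed from all genes was not tested. The Adm call was lost in 9 of 24 fits without 1 library. Car9 was near the floor of 3 counts, with 0 to 6 counts in the control libraries and 2 to 15 in the high-fat libraries. The size of its fold change is therefore uncertain. Of the 4 genes known as HIF targets among the 10, P4ha1 and Plod2 were called higher while P4ha2 and Plod1 were not called.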

How the data were processed

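RNA-Seq libraries of poly(A)-selected whole-liver RNA were analysed for 24 samples, for which the authors deposited 1 table of raw counts, with Ensembl gene IDs and no normalization. The submitters' processing notes name bcl2fastq, STAR 2.7.3a and mm10, while the counting program, its annotation and its strand setting are not given in the sources used here. Reads shared between overlapping or near-identical genes may therefore have been dropped or split. All 24 count columns were matched to samples by title (0 columns left unused). Symbols, coordinates and exon lengths came from GENCODE M21 (GRCm38) by gene ID for 51745 of 56205 IDs, and the other 4460 held 0.0723% of counts. Promoters came from RefSeq (GRCm38.p6), with 7 of 10 genes matched.

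Genes were kept if 12 or more libraries had a count of at least 1, and were tested with edgeR 4.0.16 and limma 3.58.1 in R 4.3.3, with the diet as the only term, since the labels give no sex per library. Intervals are 95%. The test was run first on made-up counts with known changes. Ratios, shares and correlations used permutation tests with 100000 resamples (exact for 6 libraries against 6) in Python 3.11.15, numpy 2.4.6 and scipy 1.17.1, with a pseudocount of 1 CPM. Libraries of a diet differed beyond sampling noise, with a chi-square of at least 10.1 per degree of freedom for every pair. The floor of 3 counts covers counting error only.

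The rule for the 10 genes used no measured value, but the 10 genes, the lists of pathway genes, HIF targets and markers, and the tests were chosen with earlier results of these data known. Named genes were the 10, the called genes and the most abundant per kilobase of each pathway role, the collagen chains, the called HIF targets and the most alike gene of each of the 10 (mean of at least 10 counts). Alternatives were DESeq2 1.42.0, limma-voom, other scalings, filters, thresholds and pseudocounts, a replicate block, the set of libraries as a term, either set alone and each library left out. After seeing the data, a fit without both libraries of extreme TMM factor and fits of the listed genes without each library were added.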

Additional observations from a re-analysis of the deposited data

Results flagged for a closer look

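The diet effect on Crtap differed between the libraries with Xist below 1000 counts and those with Xist above 1000 counts by 1.07 on the log2 scale (adjusted p 0.00801, test of the interaction in edgeR's quasi-likelihood model). In the first of these sets 6 high-fat libraries lay at 16.4 to 29.1 CPM and 6 controls at 4.76 to 11.4 CPM, and in the other at 10.9 to 18.4 CPM and 7.86 to 11.2 CPM. An interaction at an adjusted p of at most 0.05 was found for 1831 genes (10.2%) and for Crtap alone of the 10, near the share of all genes. The cause was not tested.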

How the results depend on the processing

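DESeq2's Wald test, limma-voom, DESeq2's size factors, no filter on low counts, the default filter of edgeR and the set of libraries as a term kept 5 of the 10 genes higher and 1 lower. The numbers 1 to 12 were not taken to pair libraries (correlations of deviations -0.0935 to 0.541, and 2 of 12 high-fat libraries most like their own number). With the replicate block 5 were higher and 1 lower, with 2063 genes higher and 844 lower in all, and no call of the 10 changed. Without both libraries of extreme TMM factor, added after seeing the data, the counts were 5 and 1, and the fitted value of P4ha3, which is no bound, was 1.38 in place of 2.24.

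With library totals 0 of the 10 were lower, Bmp1 was at -0.48, P4ha2 at 0.65 and Plod1 at 0.57, with 3827 genes higher and 226 lower in all. With a fold threshold of 1, 0 of the 10 were lower (Bmp1 -0.76), P4ha1 at 0.81 was not called, and 216 genes were lower. At an adjusted p of 0.05 without a fold threshold, 3709 genes were higher and 3388 lower, P4ha3 (2.24) and Plod1 (0.29) among the higher. Where a minimum of 10 counts per library was set, 4 of the 10 were higher and 1 lower, Plod2 and P4ha3 being filtered out, and 1226 genes were higher. In libraries with Xist above 1000 counts 2 of the 10 were higher, P4ha1 at 0.54, Plod2 at 1.19 and Crtap at 0.50 were not called and Plod3 was at -0.0025, with 525 genes higher and 162 lower. In those with Xist below 1000 counts 1430 genes were lower.

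For ratios, libraries with Xist above 1000 counts gave -0.34 for P4ha2 to P4ha1, -0.54 for P4ha3 to P4ha1, 0.23 for Plod2 to Plod1, -0.37 for Plod3 to Plod1 and -0.48 for Plod2 to Fkbp10, and those below gave 0.047 for Plod3 to Plod1 and -0.37 for Plod2 to Fkbp10. A pseudocount of 0.1 gave -0.22 for P4ha3 to P4ha1, whose main value of -0.64 is set by the pseudocount, and -0.14 for Plod2 to Fkbp10. Without the 2 libraries farthest in Col1a1, r was 0.28 for Bmp1 and 0.31 for Crtap on the high-fat diet, and 0.82 for Pcolce, 0.16 for Bmp1, 0.71 for Crtap and -0.19 for Fkbp10 on the control diet, while rho of Crtap on the high-fat diet was 0.0205. The cause of these changes was not tested.

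Leaving out each library gave 5 to 5 higher and 1 to 1 lower of the 10, and 2137 to 2464 higher and 745 to 995 lower of all genes. Log2 fold changes ran from 0.75 to 0.91 for P4ha1, 0.12 to 0.44 for P4ha2, 2.12 to 2.36 for P4ha3 (the 12 fits that left out a library at 0, the gene being filtered out of the others, and 1.45 without high-fat replicate 9 when its row is kept), 0.28 to 0.33 for Plod1, 1.61 to 1.83 for Plod2, 0.09 to 0.15 for Plod3, 1.02 to 1.19 for Pcolce, -0.82 to -0.73 for Bmp1, 0.94 to 1.09 for Crtap and 1.63 to 1.95 for Fkbp10. Depth limits P4ha3, with at most 21 counts in a library.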
